A study of Rattus norvegicus with 8 samples.

Results

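Genes for potassium channel subunits were followed in RNA of rat OPC cultures given IL-4 or PBS. The members were all genes whose symbol in the array's probe table begins with Kcn, the prefix of the potassium channel gene family, and the brightest probe set was used where a gene had several. There were 86 such genes among 15037 genes with a single symbol and 23188 probe sets in all. They comprised 15 inward rectifier genes (Kcnj), 13 two-pore channel genes (Kcnk), 48 voltage-gated genes with their auxiliary subunits, and 10 calcium-activated genes. The last group also holds the sodium-activated channels Kcnt1 and Kcnt2, which are structural relatives of the large-conductance calcium-activated channel. Of the 86 genes, 70 code for pore-forming subunits and 16 for auxiliary subunits. Only Kcnip2 had more than 1 probe set.

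The cells were primary OPCs from newborn Sprague Dawley rats of both sexes, shaken off mixed glial cultures and kept in PDGF and bFGF. Cultures received IL-4 at 20 ng/mL or PBS for 3 d, and 4 arrays were run for each of these conditions, from what the methods call biologic replicates. Each value is a log2 signal of a Clariom S rat array, on which a difference of 1 is a 2-fold change, and the difference between IL-4 and PBS cultures was tested in limma, its p adjusted by Benjamini-Hochberg over every probe set. Levels are those of the RNA of a whole culture, so that fewer cells of a type and less RNA per cell cannot be told apart. The precision is limited by the number of arrays, which have no depth of reads.

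Potassium channels let potassium leave the cell down its gradient and so set the resting potential of glia and end the action potentials of neurons. Inward rectifiers and two-pore channels hold the membrane near rest, voltage-gated channels open on depolarization, and calcium-activated channels open when calcium in the cell rises. OPCs are known for large voltage-gated outward currents, while mature oligodendrocytes are dominated by inward rectification through Kir4.1, the product of Kcnj10, which takes up potassium released by active axons.

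Channel genes of each group went both ways. Of the 86 genes, 14 were higher in IL-4 cultures than in PBS cultures and 14 were lower at an adjusted p under 0.05, which is 16.3% each way, while 12% of all probe sets were higher and 19.7% lower. The remaining 58 genes did not pass the test. The median log2 difference of the 86 genes was 0.03, against -0.07 for all probe sets. The groups did not overlap for 28 genes, or 32.6%, against 32.8% of all probe sets. Differences of more than 2-fold were found for 1 gene that was higher, Kcnn3, and for 3 that were lower, Kcne4, Kcna6 and Kcng1, where 2.16% of all probe sets were higher and 2.34% lower by that much. These shares are near those of the array as a whole and say nothing particular about potassium channels.

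Most of these genes gave low signals. As a limit, the 95th percentile of the mean signals of 1056 olfactory receptor genes was taken, receptors of the nasal epithelium, and it stood at a log2 signal of 5.41. The limit was chosen after the values were seen. Over it lay 24 of the 86 genes, 3 of the 15 inward rectifiers, 4 of the 13 two-pore channels, 13 of the 48 voltage-gated genes and 4 of the 10 calcium-activated genes. Of the 24, 3 were higher and 3 lower in IL-4 cultures, 12.5% each, where 11.9% of the probe sets over the limit were higher and 22.4% lower. Of the 62 genes at or under the limit, 11 were higher and 11 lower, 17.7% each, where 12.1% of such probe sets were higher and 15.9% lower. Among the olfactory receptor genes themselves 155 were higher and 121 lower, so that a passed test at such signals is not by itself a sign of an expressed gene.

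**Figure D1:**
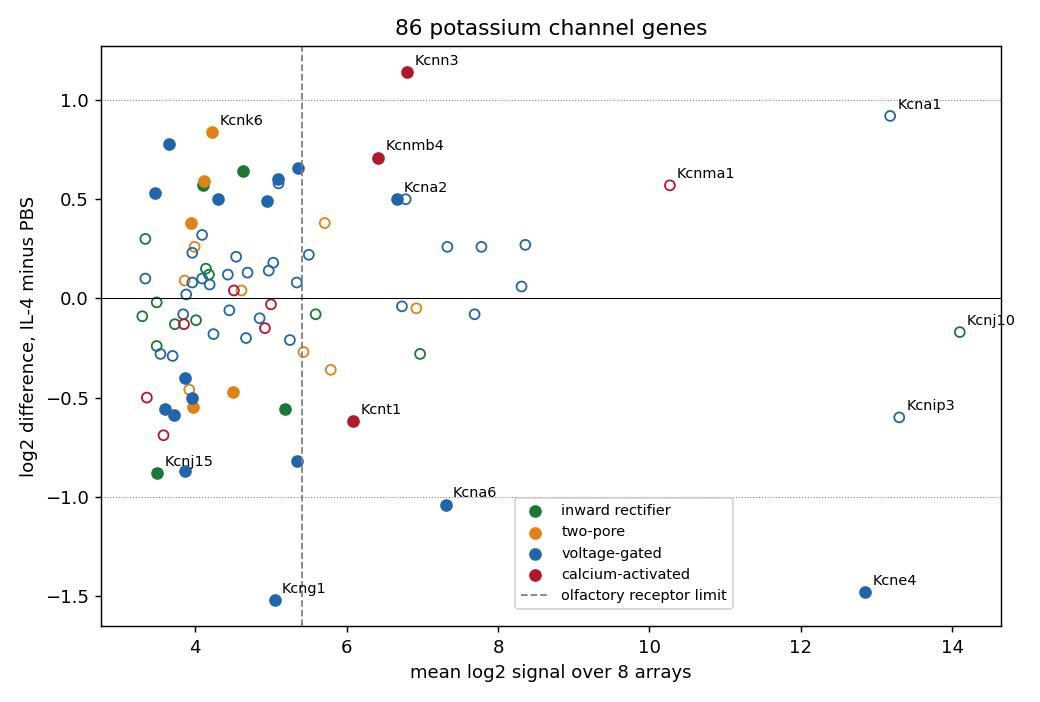
Log2 difference, IL-4 minus PBS, against the mean log2 signal over 8 arrays for 86 potassium channel genes, coloured by group, with filled points for an adjusted p under 0.05 and the olfactory receptor limit of 5.41 as a dashed line. Filled points lie on both sides of 0 in each group, and 22 of the 28 stand at or left of the dashed line.

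Cell type markers bear on every value of such a culture. The mean log2 signal of 12 myelin and mature oligodendrocyte markers was 15.60 to 15.68 on the IL-4 arrays and 14.10 to 15.40 on the PBS arrays, with 6 markers higher and 0 lower. That of 9 OPC markers was 13.04 to 13.15 on the IL-4 arrays and 12.40 to 13.07 on the PBS arrays, with 3 higher and 0 lower. The 13 microglia and macrophage markers averaged 9.0 to 9.12 on the IL-4 arrays and 8.28 to 9.78 on the PBS arrays, with 6 higher and 2 lower. The 11 astrocyte markers averaged 8.29 to 8.48 on the IL-4 arrays and 8.11 to 8.43 on the PBS arrays, and the 14 neuronal markers 7.26 to 7.33 on the IL-4 arrays and 7.20 to 7.71 on the PBS arrays, each list with 3 higher and 3 lower. The 12 markers of pericytes, endothelium and fibroblasts averaged 4.66 to 4.74 on the IL-4 arrays and 4.80 to 4.96 on the PBS arrays, with 1 higher, 4 lower and 8 of the 12 at or under the limit. PBS array 4 had the highest microglial mean and PBS array 1 the highest neuronal mean and the lowest myelin mean. Of all probe sets 12% were higher and 19.7% lower. The part of these cells in the channel results was not tested.

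The 250 bases before the RefSeq start site were read for the genes that changed by more than 2-fold, from the GRCr8 table. They are shown with capitals for matches, on either strand, to TTCNNNNGAA, the spacing that STAT6 favours downstream of the IL-4 receptor, or to TTCNNNGAA, the spacing of other STAT factors. Matches to both patterns were counted separately and may overlap. No window of Kcng1 was matched.
Kcnn3, chr2:177234090-177234339, plus strand: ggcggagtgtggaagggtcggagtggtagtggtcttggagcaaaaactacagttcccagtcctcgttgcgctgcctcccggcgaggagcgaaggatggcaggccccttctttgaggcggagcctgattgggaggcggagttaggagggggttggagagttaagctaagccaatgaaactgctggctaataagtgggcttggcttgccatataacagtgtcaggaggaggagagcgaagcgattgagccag
Kcne4, chr9:87695798-87696047, plus strand: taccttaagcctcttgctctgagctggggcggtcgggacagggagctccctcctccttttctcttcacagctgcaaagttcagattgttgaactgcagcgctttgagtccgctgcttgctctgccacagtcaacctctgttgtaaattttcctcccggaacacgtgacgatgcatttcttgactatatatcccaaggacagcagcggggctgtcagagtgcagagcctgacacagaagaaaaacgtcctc
Kcna6, chr4:161262353-161262602, minus strand: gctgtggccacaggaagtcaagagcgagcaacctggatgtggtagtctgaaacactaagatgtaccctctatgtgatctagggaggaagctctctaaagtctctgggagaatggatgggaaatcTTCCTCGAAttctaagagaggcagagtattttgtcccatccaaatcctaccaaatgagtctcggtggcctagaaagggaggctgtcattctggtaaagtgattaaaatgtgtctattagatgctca
Neither pattern occurs in the stretches of Kcnn3 and Kcne4, and that of Kcna6 holds 1 match to TTCNNNGAA. TTCNNNNGAA occurs in 6.25% of all 33469 windows of this length in the table, and in 8 of the 67 windows of the 61 channel genes that were matched, or 11.9%. Counted by gene it occurs in 6.85% of 27457 genes and in 8 of the 61 channel genes, and the difference was not tested. Of these 8 genes, 1 was higher in IL-4 cultures, 1 was lower and the others did not pass. The higher one was Kcnk2, whose signal lies under the limit. Its match is shown with 10 bases on each side, in a stretch that begins 247 bases before 1 of its listed starts.
Kcnk2, chr13:103494904-103494933, minus strand: gtcttttaagTTCCTTGGAAcaactgggat
TTCNNNGAA occurs in 7.67% of all windows and in 5 of the 67, and by gene in 8.19% of all genes and in 4 of the 61, of which Kcna6 was lower and the other 3 did not pass. A match is a run of letters and says nothing of whether a factor binds there.

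Of the 10 genes of the calcium-activated group, 2 rose and 1 fell, or 20% and 10%, all of them over the limit. Of all probe sets 12% were higher and 19.7% lower. Kcnn3 codes for SK3, a small-conductance channel that senses calcium through bound calmodulin. Its log2 signal was 7.52, 7.37, 7.30 and 7.28 on the IL-4 arrays, against 5.82, 6.41, 6.36 and 6.32 on the PBS arrays. Every IL-4 array lay above every PBS array, and PBS array 1 was the lowest. This gave a log2 difference of 1.14 (SE 0.14, 95% interval 0.82 to 1.46, adjusted p = 0.0004), and with each array left out in turn the difference was 1.00 to 1.20 and passed each time. Kcnmb4 codes for the beta4 subunit of the large-conductance channel, which in neurons slows its gating and makes it resistant to iberiotoxin. Its signal was 7.0, 6.65, 6.67 and 6.78 on the IL-4 arrays, against 5.76, 6.62, 5.71 and 6.18 on the PBS arrays. The groups did not overlap, but PBS array 2, at 6.62, came close to IL-4 array 2, at 6.65. The fit gave a log2 difference of 0.71 (SE 0.19, 95% interval 0.28 to 1.13, adjusted p = 0.018), and without IL-4 array 1 or without PBS array 3 the adjusted p was 0.053.

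Kcnma1, the pore of that large-conductance channel, did not pass. Its log2 signal was 10.42, 10.65, 10.56 and 10.58 on the IL-4 arrays, against 9.06, 10.80, 10.28 and 9.79 on the PBS arrays. The IL-4 arrays lay close together, and the PBS arrays spread on both sides of them, with a log2 difference of 0.57 (SE 0.29, 95% interval -0.08 to 1.22, adjusted p = 0.16). Without PBS array 2, the highest, the difference was 0.84 and the adjusted p 0.026, and without PBS array 1, the lowest, they were 0.26 and 0.37. Kcnt1, the sodium-activated channel Slack, fell, with 5.89, 5.75, 5.81 and 5.65 on the IL-4 arrays, against 6.95, 5.87, 6.69 and 6.09 on the PBS arrays. IL-4 array 1 lay just above PBS array 2, so the groups overlapped. The difference of -0.62 (SE 0.21, adjusted p = 0.045) failed the test when any 1 of the IL-4 arrays or PBS array 1 or 3 was left out, with adjusted p up to 0.12. Kcnn4, the intermediate-conductance channel of T cells and microglia, stood under the limit with 3.21, 2.79, 3.73 and 3.22 on the IL-4 arrays, against 3.65, 3.85, 3.17 and 5.04 on the PBS arrays. PBS array 4 was its highest array, and the difference was -0.69 (adjusted p = 0.15), or -0.32 without that array. The other 5 members of the group, Kcnn1, Kcnmb1, Kcnmb2, Kcnmb3 and Kcnt2, were also under the limit and did not pass.

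**Figure D2:**
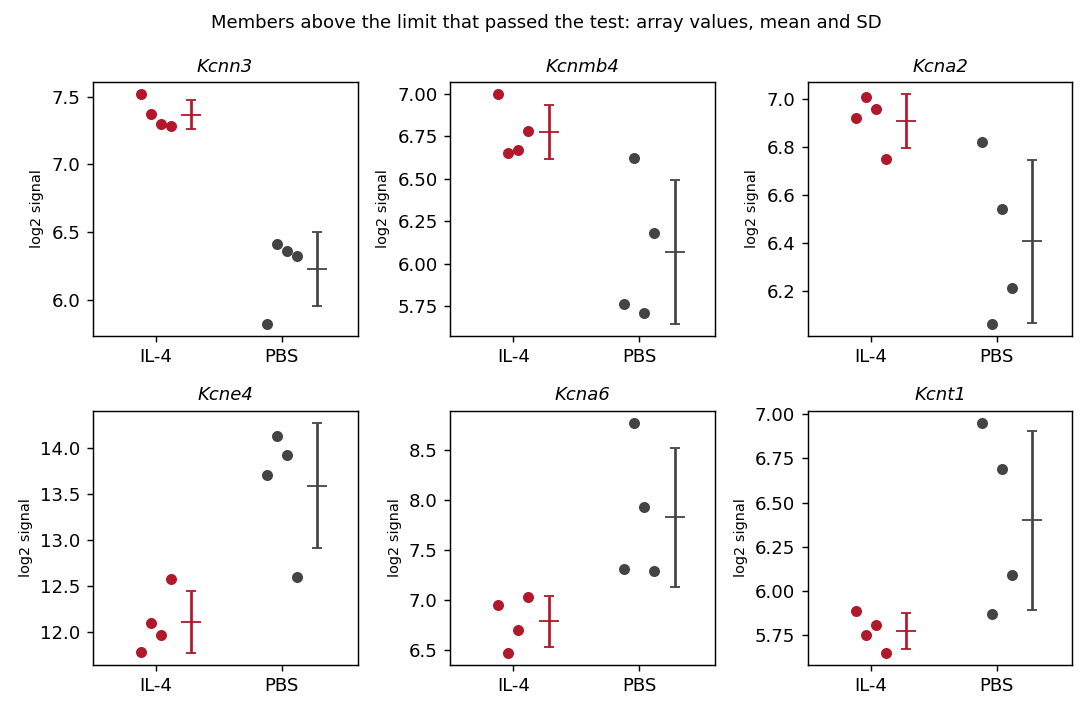
Log2 signal of the 6 genes over the olfactory receptor limit that passed the test, with a point for each of 4 IL-4 and 4 PBS arrays and the mean with its SD beside them. Kcnn3, Kcnmb4 and Kcna2 are higher in IL-4 cultures and Kcne4, Kcna6 and Kcnt1 lower, and the groups overlap for Kcna2 and Kcnt1.

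Among the 48 voltage-gated genes 7 rose, 9 fell and 32 did not pass, with a median log2 difference of 0.08. That is 14.6% higher and 18.8% lower, near the 12% and 19.7% of all probe sets. The Kv1 genes, which form the low-threshold delayed rectifiers of axons and OPCs, went both ways. Kcna6, the Kv1.6 subunit, gave 6.95, 6.47, 6.70 and 7.03 on the IL-4 arrays, against 7.31, 8.77, 7.93 and 7.29 on the PBS arrays. All IL-4 arrays lay below all PBS arrays, of which array 2 was the highest. This was a log2 difference of -1.04 (SE 0.29, 95% interval -1.68 to -0.40, adjusted p = 0.02). The call failed by a little without IL-4 array 2, IL-4 array 3 or PBS array 3, at adjusted p of 0.058, 0.052 and 0.054. Left out in turn, the arrays gave differences of -1.22 to -0.72. Without PBS array 2 or without IL-4 array 2 the difference was under 2-fold, at -0.72 and -0.93.

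Kcna2, the Kv1.2 subunit that sits beside the nodes of Ranvier in myelinated axons, gave 6.92, 7.01, 6.96 and 6.75 on the IL-4 arrays, against 6.82, 6.06, 6.54 and 6.21 on the PBS arrays. PBS array 1 lay within the IL-4 arrays and the other PBS arrays lay below them. The difference was 0.50 (SE 0.16, adjusted p = 0.038), and it kept its call only when PBS array 1 was left out, the adjusted p being up to 0.09 in the other 7 cases. Kcna1, its Kv1.1 partner, gave 13.61, 13.61, 13.63 and 13.72 on the IL-4 arrays, against 11.58, 14.03, 12.92 and 12.37 on the PBS arrays. The PBS arrays ran from well below the IL-4 arrays to above them. The difference of 0.92 (SE 0.39, 95% interval 0.05 to 1.79) did not pass, with an adjusted p of 0.098, while without PBS array 2 it was 1.35 with an adjusted p of 0.0047 and without PBS array 1 it was 0.54 with an adjusted p of 0.23.

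Kcna3, the Kv1.3 channel of T cells and microglia that OPCs also use during division, gave 8.0, 8.65, 8.71 and 8.61 on the IL-4 arrays, against 8.36, 8.33, 8.37 and 7.83 on the PBS arrays. The groups overlapped and the difference was 0.27 (adjusted p = 0.29). Kcna4, the A-type Kv1.4 subunit known from OPCs, was under the limit and higher in IL-4 cultures, by 0.49 (adjusted p = 0.028), a call lost without any 1 of IL-4 arrays 2 and 3 and PBS arrays 1 and 3, at adjusted p up to 0.081. The other 3 Kv1 genes, Kcna5, Kcna7 and Kcna10, were under the limit and did not pass, and Kcna5, which OPCs are known to use, was at -0.29 (adjusted p = 0.099). Nor did the 3 cytoplasmic beta subunits, of which Kcnab1 and Kcnab2 were over the limit at -0.04 and 0.26 (adjusted p = 0.9 and 0.18).

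The KCNE genes code for small single-span subunits that change the gating of voltage-gated channels. Kcne4, whose product inhibits several Kv1 channels and the cardiac channel of Kcnq1, had the lowest difference of the 24 genes over the limit. Its log2 signal was 11.78, 12.10, 11.97 and 12.57 on the IL-4 arrays, against 13.70, 14.13, 13.92 and 12.60 on the PBS arrays. Each IL-4 array lay below each PBS array, although IL-4 array 4, at 12.57, and PBS array 4, at 12.60, stood close. The means were 12.10 ± 0.34 log2 units in IL-4 cultures and 13.59 ± 0.68 in PBS cultures (SD, n = 4 each), with a log2 difference of -1.48 (SE 0.30, 95% interval -2.14 to -0.83, adjusted p = 0.0042). With each array left out in turn it was -1.81 to -1.30 and passed every time. Kcne2 was under the limit and higher, by 0.66 (adjusted p = 0.0046), and Kcne1, Kcne3 and Kcne5 did not pass.

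Of the 10 electrically silent subunits, which form no channel alone but join Kv2 subunits, 2 rose, 3 fell and 5 did not pass, and none was over the limit. Their shares of 20% and 30% stand beside 12% and 19.7% of all probe sets. Kcng1, the Kv6.1 subunit, gave 4.39, 4.30, 4.41 and 4.06 on the IL-4 arrays, against 5.66, 5.79, 6.06 and 5.73 on the PBS arrays. The IL-4 arrays stood well below the PBS arrays. The difference was -1.52 (SE 0.13, 95% interval -1.81 to -1.23, adjusted p = 4.1e-05), and it passed without any 1 array. All 4 PBS arrays were over 5.41 and all 4 IL-4 arrays under it, so the size of the difference cannot be read exactly. Kcns1 was lower, at -0.59 (adjusted p = 0.0019), Kcns2 at -0.56 (adjusted p = 0.013), and Kcnf1 and Kcnv2 were higher by 0.60 (adjusted p = 0.042) and 0.53 (adjusted p = 0.013). Kcnf1 overlapped between the groups and lost its call without any 1 of IL-4 arrays 1, 3 and 4 and PBS arrays 1, 2 and 4, at adjusted p up to 0.11. Kcnb2, the only Kv2 partner among the 86 genes, was at 0.58 (adjusted p = 0.09). The 5 silent subunits that did not pass, Kcng2, Kcng3, Kcng4, Kcns3 and Kcnv1, lay between -0.18 and 0.21.

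The EAG, ERG and ELK genes, whose ERG members repolarize the heart, split evenly, with 2 of the 8 higher and 2 lower. That is 25% each way, beside 12% and 19.7% of all probe sets. Only Kcnh5 was over the limit, at 0.22 (adjusted p = 0.49). Kcnh3 and Kcnh2 were higher, by 0.78 (adjusted p = 0.002) and 0.50 (adjusted p = 0.013), while Kcnh7 and Kcnh4 were lower, at -0.87 (adjusted p = 0.001) and -0.40 (adjusted p = 0.034). Kcnh1, Kcnh6 and Kcnh8 did not pass. Of the 3 Kv3 genes, which let neurons fire fast, Kcnc1 was lower, at -0.82 (adjusted p = 0.0091), at a mean just under the limit. Kcnc2 and Kcnc4 did not pass. The share of 33.3% lower stands beside 19.7% of all probe sets. The A-type Kv4 channels carry no call in these data. Kcnd2 averaged 7.65 ± 0.29 log2 units in IL-4 cultures and 7.73 ± 0.30 in PBS cultures (SD, n = 4 each) and Kcnd3 7.46 ± 0.02 log2 units in IL-4 cultures and 7.21 ± 0.30 in PBS cultures (SD, n = 4 each), with differences of -0.08 (adjusted p = 0.76) and 0.26 (adjusted p = 0.21), and Kcnd1 was under the limit.

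The KChIP proteins are calcium sensors that carry Kv4 channels to the surface, and 1 of them, the product of Kcnip3, also acts as a transcriptional repressor under the name DREAM. Kcnip3 had the widest spread of PBS arrays of the 24 genes over the limit. Its log2 signal was 13.04, 13.0, 12.96 and 13.0 on the IL-4 arrays, against 15.23, 11.82, 13.80 and 13.56 on the PBS arrays. The IL-4 arrays were close together and lay between PBS array 2 below and the other PBS arrays above. The difference of -0.60 (95% interval -1.77 to 0.56, adjusted p = 0.41) did not pass, but without PBS array 2 it was -1.20 with an adjusted p of 0.023, and without PBS array 1 it was -0.06 with an adjusted p of 0.92. Kcnip4 was under the limit and lower, at -0.50 (adjusted p = 0.02), and Kcnip1 and Kcnip2 did not pass. Kcnq5 and Kcnq3, subunits of the muscarine-sensitive M current, stood at 0.50 (adjusted p = 0.089) and 0.06 (adjusted p = 0.86). All IL-4 arrays of Kcnq5, at 7.02, 6.98, 7.09 and 7.02, lay above all PBS arrays, at 6.92, 5.80, 6.62 and 6.76, without passing the test, and Kcnq1 was under the limit.

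**Figure D3:**
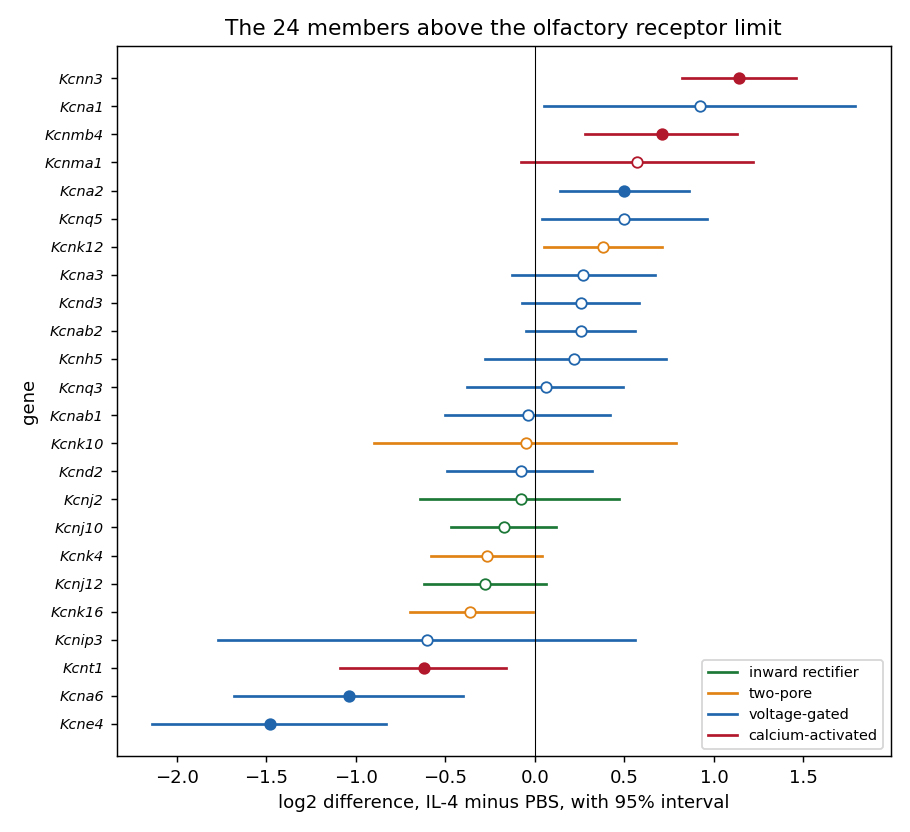
Log2 difference, IL-4 minus PBS, with its 95% interval from limma for the 24 potassium channel genes over the olfactory receptor limit, ordered by the difference and coloured by group, with filled points for an adjusted p under 0.05. The intervals of Kcnip3, Kcnk10 and Kcna1 are the widest, and the filled points are Kcnn3, Kcnmb4 and Kcna2 above 0 and Kcnt1, Kcna6 and Kcne4 below it.

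Of the 15 inward rectifiers 2 rose, 2 fell and 11 did not pass, with a median log2 difference of -0.09. That is 13.3% each way, where 12% of all probe sets were higher and 19.7% lower. Kcnj10, the Kir4.1 channel of oligodendrocytes and astrocytes, gave 14.02, 13.96, 13.96 and 14.10 on the IL-4 arrays, against 13.88, 14.09, 14.35 and 14.41 on the PBS arrays. The groups overlapped, with PBS array 1 below every IL-4 array and PBS arrays 3 and 4 above them. The difference was -0.17 (adjusted p = 0.35), and its 95% interval of -0.47 to 0.12 does not reach a 2-fold change in either direction. Kcnj16, which codes for the Kir5.1 subunit that pairs with Kir4.1, was under the limit at 3.40, 3.90, 3.23 and 3.46 on the IL-4 arrays, against 3.48, 2.95, 2.67 and 3.67 on the PBS arrays. Its groups overlapped, at 0.30 (adjusted p = 0.32).

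Kcnj2 and Kcnj12, the strong rectifiers Kir2.1 and Kir2.2, were the other inward rectifiers over the limit. Kcnj2 gave 5.60, 5.36, 5.60 and 5.64 on the IL-4 arrays, against 5.62, 5.55, 4.94 and 6.43 on the PBS arrays. PBS array 4 was the highest of the 8 and PBS array 3 the lowest, and the difference was -0.08 (adjusted p = 0.82), or 0.18 without PBS array 4. Kcnj12 was at -0.28 (adjusted p = 0.19). The calls fell on genes under the limit. Kcnj15, the Kir4.2 channel, gave 2.90, 3.04, 3.25 and 3.06 on the IL-4 arrays, against 4.10, 4.01, 3.92 and 3.75 on the PBS arrays, with no overlap and a log2 difference of -0.88 (SE 0.12, 95% interval -1.15 to -0.61, adjusted p = 0.0006). Kcnj14 was lower too, at -0.56 (adjusted p = 0.011). Kcnj1, the potassium channel of the kidney tubule, and Kcnj8, the pore of the vascular ATP-sensitive channel, were higher by 0.64 (adjusted p = 0.0029) and 0.57 (adjusted p = 0.015). The pore of the other ATP-sensitive channel, Kcnj11, and the G protein-gated Kcnj3, Kcnj5, Kcnj6 and Kcnj9 were under the limit and did not pass, and nor did Kcnj4 and Kcnj13.

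Of the 13 two-pore genes 3 rose, 2 fell and 8 did not pass, with a median log2 difference of 0.04, and the 4 over the limit were all among the 8. The shares were 23.1% higher and 15.4% lower, beside 12% and 19.7% of all probe sets. Kcnk10, the stretch- and lipid-gated TREK2 channel, gave 6.88, 7.0, 6.70 and 7.0 on the IL-4 arrays, against 8.16, 5.95, 7.33 and 6.36 on the PBS arrays. The IL-4 arrays lay close together and inside the span of the PBS arrays. Its interval was wide, -0.90 to 0.79, around a difference of -0.05 (adjusted p = 0.93). Kcnk12, a subunit with little current of its own, Kcnk16 and Kcnk4, the TRAAK channel, stood at 0.38 (adjusted p = 0.072), -0.36 (adjusted p = 0.1) and -0.27 (adjusted p = 0.17). Kcnk12 passed without IL-4 array 1 or PBS array 2, at adjusted p of 0.049 and 0.044, and Kcnk16 without PBS array 3, at -0.48 and 0.039, while without PBS array 1 it was at -0.22.

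The 5 two-pore calls were of genes under the limit. Kcnk6, the TWIK2 channel through which macrophages lose potassium when the inflammasome is activated, gave 5.05, 4.48, 4.54 and 4.48 on the IL-4 arrays, against 3.84, 3.80, 3.57 and 3.97 on the PBS arrays. All IL-4 arrays were above all PBS arrays, IL-4 array 1 the highest, with a log2 difference of 0.84 (SE 0.15, 95% interval 0.51 to 1.18, adjusted p = 0.0025). Kcnk2, the TREK1 channel, and Kcnk3, the acid-sensitive TASK1 channel, were higher by 0.59 (adjusted p = 0.026) and 0.38 (adjusted p = 0.019). Kcnk1 and Kcnk18, the TWIK1 channel and the TRESK channel of sensory neurons, were lower, at -0.55 (adjusted p = 0.021) and -0.47 (adjusted p = 0.014). Kcnk2 lost its call without IL-4 array 3 or any 1 of PBS arrays 2, 3 and 4, Kcnk1 without any 1 of IL-4 arrays 1, 3 and 4 or PBS array 3, at adjusted p up to 0.071 and 0.065, and Kcnk3 without IL-4 array 2, at an adjusted p of 0.051. Kcnk13, the THIK1 channel of microglia, was under the limit and did not pass, at 0.26 (adjusted p = 0.12). The same held for the alkali-activated Kcnk5 and for Kcnk9 and Kcnk15, close relatives of Kcnk3, at 0.04 (adjusted p = 0.89), -0.46 (adjusted p = 0.066) and 0.09 (adjusted p = 0.62).

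The PBS arrays of these genes were more spread than the IL-4 arrays. Among the 24 genes over the limit the median SD was 0.148 in IL-4 cultures and 0.356 in PBS cultures. For all probe sets, which include the 9728 at or under the limit, it was 0.154 in IL-4 cultures and 0.219 in PBS cultures. The sets are thus not alike in signal. The IL-4 arrays spanned more than 1 log2 unit for 0 of the 24 genes, and the PBS arrays did so for 10. Among the 13460 probe sets over the limit the PBS arrays did so for 1446, not counting those with tied PBS arrays. Those 10 genes, a choice made after the values were seen, fell into a few orders of the 4 PBS arrays. Kcna1, Kcnh5 and Kcnma1 were lowest on PBS array 1, then 4, 3 and 2, an order that 7.95% of the probe sets of such span and signal share and that is also that of Mog and Mobp of the myelin list and of Gpr17 of the OPC list. Kcnip3, Kcnk10 and Kcnt1 were lowest on PBS array 2, then 4, 3 and 1, an order held by 12% of the probe sets. It is also that of Cspg4, the NG2 proteoglycan of OPCs, of Aldoc of astrocytes and of the neuronal markers Tubb3, Snap25, Syt1 and Elavl4. The OPC markers did not share 1 order. Vcan, like Gpr17, was lowest on PBS array 1, and Matn4 was lowest on array 2 and highest on array 4. Nor did the myelin markers, since Mal, Ermn and Hapln2 were lowest on PBS array 1, then 3, 4 and 2. Only markers whose PBS arrays spanned more than 1 log2 unit were ordered. Of the other neuronal markers, Map2, Gad1, Gad2 and Stmn2 were lowest on PBS array 1 and Syn1 was highest there.

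Kcna6 and Kcne4 shared another order, lowest on PBS array 4 and highest on array 2, with the oligodendrocyte marker Opalin, the astrocyte water channel Aqp4 and 6.29% of the probe sets. Kcnj2, lowest on PBS array 3 and highest on array 4, had the order of Cx3cr1, P2ry12 and Fcgr1a of microglia and Col1a1 of fibroblasts. It was held by 4.98%. Other microglial markers did not share it. Csf1r, Cd68, Trem2 and Ptprc were lowest on PBS array 2, then 3, 1 and 4, an order held by 12.3%. C1qb and C1qc had other orders again, and none of the channel genes ordered here had any of these. Kcnq5, lowest on PBS array 2, then 3, 4 and 1, had the order of Pdgfra and Bcan of OPCs, held by 8.92%. The log2 signal of Mog was 13.21, 13.39, 13.34 and 13.31 on the IL-4 arrays, against 11.04, 13.19, 12.59 and 12.34 on the PBS arrays. That of Cspg4 was 7.08, 6.85, 6.88 and 6.90 on the IL-4 arrays, against 8.88, 6.46, 7.53 and 7.20 on the PBS arrays. That of Tubb3 was 9.29, 9.21, 9.27 and 9.17 on the IL-4 arrays, against 12.77, 9.78, 11.65 and 11.11 on the PBS arrays. For each of these markers PBS array 1 was the farthest from the IL-4 arrays. These likenesses rest on 4 arrays of 1 condition, and the part of the cell mixture in them was not tested.

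**Figure D4:**
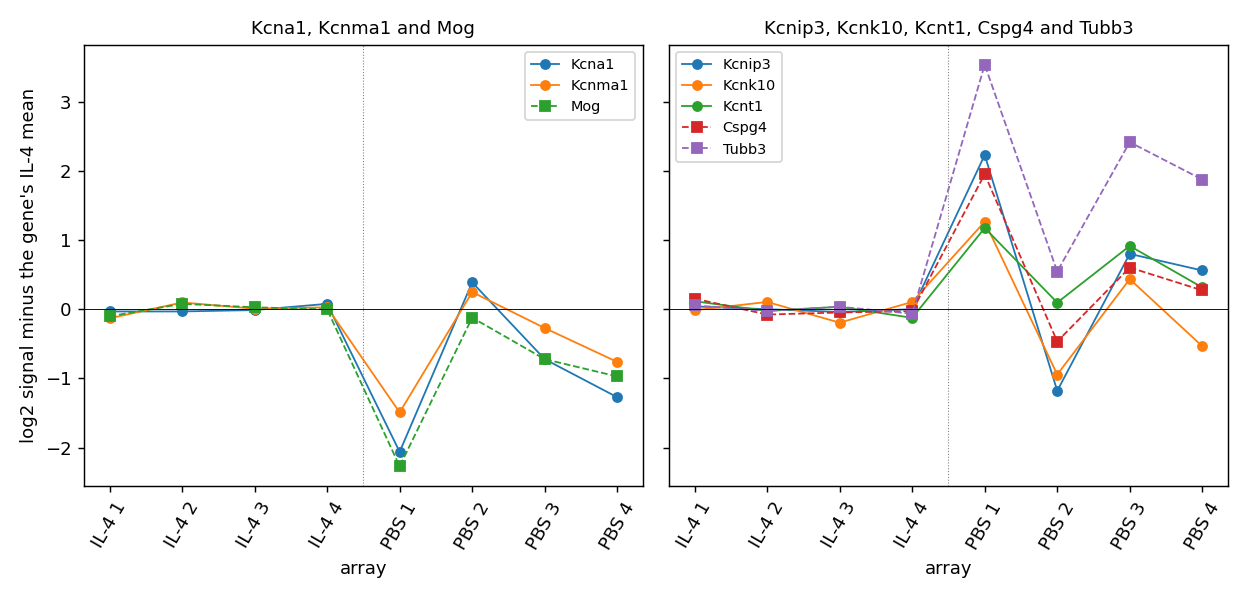
Log2 signal minus the gene's mean over the IL-4 arrays, on 4 IL-4 arrays and 4 PBS arrays, for Kcna1 and Kcnma1 with the myelin gene Mog on the left and for Kcnip3, Kcnk10 and Kcnt1 with Cspg4 and Tubb3 on the right, in dashed lines for markers. The IL-4 arrays lie near 0 in each panel, and on PBS array 1 the left genes are at their lowest and the right genes at their highest.

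By cell type, 11 of 12 genes listed as known from the oligodendrocyte lineage were measured, of which 2 were higher, Kcna2 and Kcna4, 2 lower, Kcna6 and Kcnk1, and 7 did not pass, where 12% of all probe sets were higher and 19.7% lower. All 7 genes listed as known from microglia and macrophages were measured. Of these, Kcnk6 was higher and 6 did not pass, beside the same 12% and 19.7% of all probe sets. The lists are not separate, since Kcna3, Kcna5 and Kcnj2 stand on both. At or under the limit were 4 of the 11 genes and 4 of the 7, Kcnk6 among them. The 7 genes of the microglial list did not share a place on PBS array 4, where the mean of the 13 microglial markers was highest. The markers did not share a place there either. Cd68 was at its highest of the 8 arrays on PBS array 4, at 14.19, while C1qa, at 11.52, lay below every IL-4 array. PBS array 4 was the highest of the 8 arrays for Kcnj2 and Kcnn4, at 6.43 and 5.04, and the lowest for Kcna3, at 7.83. It lay between the other arrays for Kcna5, Kcnk6, Kcnk13 and Kcnma1, and the part of microglia was not tested.

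Other genes of ion transport and genes that sit beside these channels were counted from lists. The first list holds the sodium pump and its regulators, the proton pumps Atp4a and Atp12a, and chloride cotransporters, among them the sodium chloride cotransporter Slc12a3. Of its 18 measured genes, 5 were higher, 4 lower and 9 did not pass, where 12% of all probe sets were higher and 19.7% lower. The median log2 difference was 0.18, and 7 of the 18 were at or under the limit. Of the genes called, Atp1a4 and Slc12a1, which were higher, and Atp12a and Slc12a3, which were lower, were under the limit. Fxyd2, a regulator of the sodium pump, gave 14.11, 13.60, 13.73 and 13.83 on the IL-4 arrays, against 11.14, 11.28, 11.14 and 12.40 on the PBS arrays, with no overlap and a log2 difference of 2.33 (SE 0.26, 95% interval 1.76 to 2.90, adjusted p = 0.00021). Slc12a4, a potassium chloride cotransporter, and Atp1b2, the glial beta subunit of the pump, were higher by 1.20 (adjusted p = 0.017) and 0.75 (adjusted p = 0.01), and Fxyd6, another pump regulator, was lower, at -0.72 (adjusted p = 0.0035).

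Of 17 measured partners and relatives of potassium channels 5 were higher, 5 lower and 7 did not pass, beside the same 12% and 19.7% of all probe sets. Their median log2 difference was -0.08, and 9 of the 17 were at or under the limit. Hcn2, a pacemaker channel, gave 8.43, 8.38, 8.14 and 8.39 on the IL-4 arrays, against 6.37, 7.45, 7.39 and 7.54 on the PBS arrays. The IL-4 arrays lay above every PBS array, of which array 1 was the lowest, and the difference was 1.15 (adjusted p = 0.0041). Dpp10, an auxiliary subunit of Kv4 channels, gave 7.61, 8.05, 7.72 and 7.83 on the IL-4 arrays, against 8.47, 9.04, 8.35 and 8.49 on the PBS arrays, with every IL-4 array below every PBS array and a difference of -0.78 (adjusted p = 0.0051). Abcc8, the sulfonylurea receptor of the ATP-sensitive channel, and Lrrc26, a gamma subunit of the large-conductance channel, were lower, at -1.11 (adjusted p = 0.0011) and -0.99 (adjusted p = 0.00051), both under the limit. Of 7 measured genes of the glial network that spreads potassium, Gjb1, the connexin of oligodendrocytes, was higher and Gja1, the connexin of astrocytes, lower, and 5 did not pass. The same 12% and 19.7% of all probe sets stand beside these. Gjb1 gave 10.41, 10.52, 10.63 and 10.70 on the IL-4 arrays, against 7.74, 9.84, 8.55 and 9.45 on the PBS arrays, with no overlap and a difference of 1.67 (adjusted p = 0.0063). Gja1 was at -0.51 (adjusted p = 0.048) and lost its call without any 1 of IL-4 arrays 1, 3 and 4 and PBS arrays 1, 2 and 3, at adjusted p up to 0.13, and with quantile normalization, at 0.14.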

How the data were processed

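The values are deposited log2 signals per probe set, made by the authors with RMA, which corrects background, normalizes the arrays to each other and summarizes probes. The submitters' processing notes name Affymetrix Expression Console, Transcriptome Analysis Console 4.0 and the build rn6. Raw signals were not used here. Gene names came from the array's probe table, where 15049 of 23188 probe sets have a single symbol. IL-4 minus PBS was fitted by lmFit and eBayes of limma 3.58.1 (R 4.3.3), with Benjamini-Hochberg adjustment over all probe sets and a call at an adjusted p under 0.05. The fit was also run on values simulated with the mean of each probe set and a spread pooled over both conditions. That run cannot show how the fit behaves where the PBS arrays spread more than the IL-4 arrays. Python 3.11.15, with numpy 2.4.6, pandas 2.3.3 and matplotlib 3.10.9, served for tables and plots.

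The members, lists and markers were chosen with earlier results of these data known. Genes were named if they were called with more than 2-fold, were among up to 6 called genes of a group with the largest change in each direction, were among the 3 of each group with the highest mean, or were on the lists known from the oligodendrocyte lineage or from microglia and macrophages. From the other lists at most 4 called genes were named. The remaining names complete counts and were picked with their values in view. Promoter windows of 61 of the 86 genes were matched in the RefSeq table of GRCr8. One promoter stretch is not reported here. The alternatives were quantile normalization, median centring, removal of probe sets below the 40th percentile of signal, a trend with a robust prior, array weights and the replicate number as a block. Others were a t-test with equal variances, the dimmest probe set of a gene and each array left out. The methods name Student's t-test for comparing 2 groups in general, and Transcriptome Analysis Console for the arrays. A limit at the 90th percentile of the olfactory receptor genes was added after the data were seen.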

Additional observations from a re-analysis of the deposited data

Results flagged for a closer look

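An array was taken as standing apart where its gap to the nearest other array of its condition, divided by the range of the 4, was over Dixon's critical value for 4 values. This held for 17 of 102 groups of 4 arrays, and chance flags about 1 in 20 for normal values without ties. Over the limit it held for Kcnn3 on PBS array 1, at a log2 signal of 5.82, for Kcna3 on IL-4 array 1, at 8.0, and on PBS array 4, at 7.83, for Kcnj2 on IL-4 array 2, at 5.36, and for Kcnk16 on IL-4 array 4, at 5.45. Under the limit it held for Kcnk6 on IL-4 array 1, at 5.05, Kcna4 on IL-4 array 2, at 5.48, Kcne2 on PBS array 2, at 4.73, Kcnj1 on IL-4 array 3, at 4.92, Kcnk3 on IL-4 array 2, at 4.17, and Kcnk2 on IL-4 array 3, at 4.86, and PBS array 1, at 4.19. Among genes outside the 86 it held for Fxyd2 on PBS array 4, at 12.40, Fxyd6 on IL-4 array 1, at 6.88, Hcn2 on PBS array 1, at 6.37, and Lrrc26 on IL-4 array 2, at 3.87, and PBS array 1, at 4.83. The IL-4 values of Kcnj1 lay between 4.92 and 4.96 and those of Kcnk3 between 4.12 and 4.17, so that these gaps are small in size. The values are given to 2 decimals, and any gap is flagged where the other arrays are tied, as for the IL-4 arrays of Kcnj1, Kcnk3, Kcnk16 and Fxyd6. The share flagged over all probe sets was not counted, and no cause was tested.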

How the results depend on the processing

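Over the alternatives, 668 values of the 51 genes tested this way kept their direction and their side of the threshold. A call was lost for 57 values and gained for 7, and the direction turned for 10. For 31 of the genes every setting run kept both, which was 15 settings for 28 of the 51 genes and 14 for the 23 that fell under the 40th percentile of signal. With probe sets under the 40th percentile of signal left out, 4 channel genes were higher and 4 lower, with 0 and 0 inward rectifiers, 0 and 0 two-pore genes, and 2 and 3 voltage-gated genes, since most of the genes called were not tested then. The t-test with equal variances called 9 channel genes as higher, among them 4 voltage-gated and 1 calcium-activated, and 1 two-pore and 0 calcium-activated genes as lower, and 1 gene over the limit each way. It lost 10 named calls, among them Kcna2, Kcna6, Kcnmb4, Kcnt1 and, outside the channel genes, Slc12a4 at an adjusted p of 0.085. The cause was not tested. A trend with a robust prior called 2 calcium-activated genes as lower, and the limit at the 90th percentile, 5.03, gave 5 higher and 6 lower over it. With quantile normalization 14 channel genes were higher and 13 lower. With each array left out in turn, 10 to 14 channel genes were higher and 10 to 15 lower. By more than 2-fold, 1 to 2 were higher and 2 to 3 lower. Among the groups, 1 to 3 two-pore genes were lower and 4 to 6 voltage-gated genes higher. Of calcium-activated genes 1 to 3 were higher and 0 to 1 lower. Over the limit 1 to 5 genes were higher and 1 to 4 lower. Of these, the count over the limit was 5 higher without PBS array 2 and 1 higher without PBS array 3, and 1 lower without IL-4 array 2 or 3. Calcium-activated genes that were higher numbered 1 without IL-4 array 1 or PBS array 3, two-pore genes that were lower 1 without IL-4 array 1, 3 or 4, and voltage-gated genes that were higher 4 without IL-4 array 3. Directions turned for 4 genes without a call, where single arrays left out gave -0.17 to 0.10 for Kcnab1, -0.20 to 0.02 for Kcnd2, -0.32 to 0.18 for Kcnj2 and -0.39 to 0.35 for Kcnk10, and array weights gave 0.08 for Kcnj2. Array weights also gave Kcna1 an adjusted p of 0.044 by limma. With the replicate block 14 channel genes were higher and 14 lower, 2 of them calcium-activated genes that were lower, and Kcnf1 lost its call at an adjusted p of 0.06. Arrays of the same number did not deviate together, with correlations across probe sets of -0.0185 to 0.00591. This cannot decide whether the numbers pair samples, since 9728 of the probe sets lie at or under the limit, and the labels do not say. Signals near those of the olfactory receptor genes limit what can be read for 62 of the 86 genes.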
